A study of Rattus norvegicus with 8 samples.

Results

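Contactins and contactin-associated proteins are cell adhesion molecules of the nervous system. The 10 genes described here are the contactins Cntn1, Cntn2, Cntn3, Cntn4, Cntn5 and Cntn6 and the contactin-associated proteins Cntnap1, Cntnap2, Cntnap4 and Cntnap5a, taken by symbol from the 30560 genes of the deposited gene list. All 10 had an entry. Single nuclei were profiled from nodose ganglia. These hold the cell bodies of vagal sensory neurons and in rodents lie against the jugular ganglion, so that dissections can hold neurons of both.

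The rats were untreated Long Evans animals, 8 weeks old, 18 male and 18 female. Each of 12 pools combined the ganglia of 1 side from 6 rats, with 3 pools for every combination of sex (M or F) and side (L or R), written ML1 to ML3, MR1 to MR3, FL1 to FL3 and FR1 to FR3. The counts of rats and pools leave both sides to the same animals, so left and right pools are not independent, and p-values measure the spread between pools. After filtering, 36738 nuclei with 139954192 UMIs (unique molecular identifiers, each standing for 1 captured transcript) remained, at a median of 2680 UMIs. Pools held 1738 to 4849 nuclei and 7139364 to 19456287 UMIs. Y-linked genes went against the sex label in 2 pools: ML1, labelled male, had 2.88 CPM (UMIs scaled to equal depth of 1000000), within the 2.73 to 3.95 CPM of 6 pools, and FL1, labelled female, had 88.6 CPM, within the 84.4 to 91.3 CPM of the other 6. Labels were kept as given, sexes are called male-labelled and female-labelled, and results by side and sex were also computed without these 2 pools. Of the barcode combinations, 1865 occurred in more than 1 sublibrary (3808 nuclei), and 0 were shared between pools.

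The contactins are immunoglobulin-superfamily proteins held in the membrane by a lipid anchor, and the contactin-associated proteins (Caspr proteins) are single-pass relatives of the neurexins. On myelinated axons they divide the membrane beside the node of Ranvier: contactin 1 and Caspr, the product of Cntnap1, form the paranodal junction with glial neurofascin, while contactin 2 and Caspr2, the product of Cntnap2, gather voltage-gated potassium channels of the Kv1 family at the juxtaparanode next to it. Contactins 3 to 6 act in axon guidance and synapse formation in the brain, Cntnap4 has been studied in interneurons, and Cntnap5a is a less studied member of the Caspr family.

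Reference promoters of 6 of the 10 genes were found in the table of RefSeq promoters, and 3 are shown because these genes differed most between the main neuron divisions described below: Cntn1 and Cntn4 were higher in jugular-like neurons and Cntn5 in nodose-like neurons. Each stretch runs 5′ to 3′ on the gene's strand from 250 bases before the start to 50 after it, in the GRCr8 build, which is not the mRatBN7.2 build named for the counts. Capitals mark TAAT, the core recognised by many homeodomain factors, read on both strands (as TAAT or ATTA, overlapping matches counted).
Cntn1 (chr7:125252060-125252359, + strand): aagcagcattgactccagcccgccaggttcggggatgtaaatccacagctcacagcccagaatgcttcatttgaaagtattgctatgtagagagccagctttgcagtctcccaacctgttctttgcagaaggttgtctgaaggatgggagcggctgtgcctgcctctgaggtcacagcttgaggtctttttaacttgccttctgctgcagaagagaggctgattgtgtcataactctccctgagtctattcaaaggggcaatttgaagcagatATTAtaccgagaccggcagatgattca
Cntn4 (chr4:140180571-140180870, + strand): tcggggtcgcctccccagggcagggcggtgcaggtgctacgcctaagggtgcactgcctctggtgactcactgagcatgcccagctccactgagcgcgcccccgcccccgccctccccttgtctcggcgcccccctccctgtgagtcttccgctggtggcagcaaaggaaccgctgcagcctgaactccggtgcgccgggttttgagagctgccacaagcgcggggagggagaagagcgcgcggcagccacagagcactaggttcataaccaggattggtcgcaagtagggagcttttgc
Cntn5 (chr8:15731908-15732207, - strand): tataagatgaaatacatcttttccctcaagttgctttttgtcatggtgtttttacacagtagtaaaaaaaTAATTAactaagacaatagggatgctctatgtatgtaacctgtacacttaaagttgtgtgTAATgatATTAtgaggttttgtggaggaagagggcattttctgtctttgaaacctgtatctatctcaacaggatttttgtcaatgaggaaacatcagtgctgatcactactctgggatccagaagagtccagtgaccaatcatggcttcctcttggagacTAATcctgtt
The Cntn1 promoter held 1 match and 5 CG pairs, the Cntn4 promoter 0 matches and 21 CG pairs, and the Cntn5 promoter 5 matches and 0 CG pairs. Of 33469 promoters of 300 bases in the table, 60.6% held at least 1 match and 7.83% held 5 or more. The median was 1 match and 7 CG pairs, and 5.47% had no CG pair. These counts describe the letters only.

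Nuclei were clustered without the 10 genes and their partner genes, and clusters were named by marker genes, so that classes and divisions were not formed from the genes described here. Names are by likeness. There were 25270 neurons (68.8% of nuclei), 4163 satellite glia (the cells that wrap neuronal bodies), 1997 myelinating Schwann cells, 895 endothelial cells, 166 mural cells, 641 skeletal muscle nuclei (437 of them in FR2), 361 sympathetic or chromaffin-type cells and 3245 unnamed nuclei. Subclusters of 2176, 1182 and 571 nuclei had first been grouped with neurons and had neuron markers above the non-neuronal nuclei. They also met the satellite glia list, so they were moved to the other nuclei and clustered again. How many of them became satellite glia was not counted. Neurons fell into 24 subclusters. Of these neurons, 4773 were in nodose-like subclusters, 3018 in jugular-like subclusters, and 17479 in subclusters that met neither marker list. To meet a list, a subcluster needed at least 3 of its markers at 1.5-fold or more over the other neurons, and more than of the other list. A subcluster with markers at the level common to most neurons therefore met neither list, whatever its origin. Nodose-like levels describe these 4773 neurons and not all nodose neurons.

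Compared with satellite glia, myelinating Schwann cells and endothelial cells, the named non-neuronal classes that had 20 nuclei or more in each pool, neurons had the highest mean level of 9 of the 10 genes. The exception was Cntn1, whose mean in satellite glia was as high as that in neurons. Within each gene, levels are CPM per pool as mean ± SD over 12 pools. Levels of different genes are not compared, since counts were not scaled by gene length. The paranodal gene Cntn1 had 269.8 ± 53.9 CPM in neurons, 271 in satellite glia, 146 in endothelial cells and 82.7 in Schwann cells. Its partner Cntnap1 had 114 ± 12.8 CPM in neurons, 86.5 in satellite glia, 44.2 in endothelial cells and 37.5 in Schwann cells. The pools of neurons and satellite glia overlapped for both of these genes.

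The juxtaparanodal gene Cntn2 had 403 ± 40.8 CPM in neurons, 167 in satellite glia, 141 in endothelial cells and 80.7 in Schwann cells. Its partner Cntnap2 had 5772 ± 280 CPM in neurons (pools 5260 to 6199), 1914 in satellite glia, 1400 in endothelial cells and 1035 in Schwann cells. The neuron pools lay above all pools of the other 3 classes for both genes. The same held for Cntn5, at 2409 ± 330 CPM in neurons (1734 to 2948), 649 in satellite glia, 686 in endothelial cells and 388 in Schwann cells, for Cntn6, at 52.2 ± 5.0 CPM in neurons, for Cntnap4, at 83.1 ± 10.9 CPM, and for Cntnap5a, at 311 ± 28.9 CPM. Cntn3 (54.5 ± 9.9 CPM in neurons) and Cntn4 (39.0 ± 7.4 CPM) had some pools of satellite glia at the level of neurons.

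In the edgeR test on sums per pool and class, with pool as a block, 10 of 10 genes were called higher in neurons (adjusted p under 0.05) in each of the 3 contrasts. Against satellite glia 79.1% of 8253 genes were called and 39.5% were called higher in neurons. Against Schwann cells the shares were 77% and 38.1%, and against endothelial cells 67.3% and 35%. The median log2 fold change of the 10 genes was 1.27, 2.44 and 1.79 in these contrasts, beside -0.0025, -0.013 and 0.025 over all genes tested. The log2 fold change against satellite glia was 2.09 ± 0.08 (SE) for Cntn5 and 1.79 for Cntnap2, 1.46 for Cntn2, 1.44 for Cntnap4, 1.31 for Cntn6, 1.23 for Cntn3, 1.15 for Cntnap5a, 1.10 for Cntn4, 0.58 for Cntnap1 and 0.17 ± 0.06 for Cntn1 (adjusted p = 0.0058). The fold change includes TMM scaling of the sums, whereas the mean CPM of Cntn1 was 269.8 in neurons and 271 in satellite glia. Its value turned to -0.20 (adjusted p = 6.0e-04) when the 10 genes were allowed among the clustering genes, and its call was lost at both other clustering resolutions. Against Schwann cells the log2 fold changes in neurons were 2.77 for Cntnap4, 2.73 for Cntn6, 2.70 for Cntn5, 2.61 for Cntnap2, 2.46 for Cntn3, 2.41 for Cntn2, 2.13 for Cntnap5a, 1.87 for Cntn4, 1.85 for Cntn1 and 1.68 for Cntnap1. Against endothelial cells they were 2.45 for Cntnap4, 2.29 for Cntn4, 2.28 for Cntnap2, 2.06 for Cntn5, 1.88 for Cntn6, 1.70 for Cntn2, 1.65 for Cntnap5a, 1.64 for Cntn3, 1.57 for Cntnap1 and 1.18 for Cntn1. Few UMIs lie behind the lowest levels. Over all pools, endothelial cells had 21 UMIs of Cntn4, 38 of Cntn6, 40 of Cntnap4 and 47 of Cntn3. Schwann cells had 33 of Cntn6, 42 of Cntn3, 45 of Cntn4 and 51 of Cntnap4. Satellite glia lay above Schwann cells for 10 of 10 genes, where 56.1% of genes were called and 28.6% were called higher, with log2 fold changes of 1.68 ± 0.10 for Cntn1, 1.42 for Cntn6, 1.33 for Cntnap4, 1.24 for Cntn3, 1.10 for Cntnap1, 0.99 for Cntnap5a, 0.95 for Cntn2, 0.82 for Cntnap2 and 0.61 for Cntn5. The Cntn4 call in that contrast (0.76 ± 0.27) was lost without MR1 (adjusted p = 0.081).

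Neuronal transcripts were present in every non-neuronal class. The 14 neuron markers together reached 75.0% of their neuronal level in satellite glia, 46.0% in endothelial cells and 36.6% in Schwann cells (9428, 5786 and 4595 CPM against 12567 in neurons), and no marker was at 0. Taken marker by marker, the median was 59.3%, 37.8% and 28.9%. Beside these, the level in satellite glia was 26.9% of that in neurons for Cntn5, 33.2% for Cntnap2, 41.4% for Cntn2, 76.0% for Cntnap1 and 100% for Cntn1. In Schwann cells the 10 genes were at 14.2% (Cntnap4) to 33.0% (Cntnap1) of the neuronal level. All were below the 36.6% of the summed marker list, while Cntn1 (30.6%) and Cntnap1 were above the median marker. In endothelial cells they were at 18.9% (Cntnap4) to 54.1% (Cntn1), with Cntn1 above the 46.0% of the summed list and Cntnap1 (38.8%) also above the median marker. The part of carried-over neuronal RNA in these levels, and in the contrast of satellite glia with Schwann cells, was not tested. Of the satellite glia, 240 nuclei formed a cluster led by genes, among them Grin2b and Adarb2, that also led a Schwann cell cluster of 1420 nuclei. In mural cells, with 6 to 32 nuclei per pool and therefore untested, the neuron markers were at 12.9% and Cntnap2 had 475 ± 268 CPM. Sympathetic or chromaffin-type cells had 455 ± 134 CPM of Cntn1, 149 ± 98 of Cntn4 and 614 ± 144 of Cntnap5a.

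**Figure D1:**
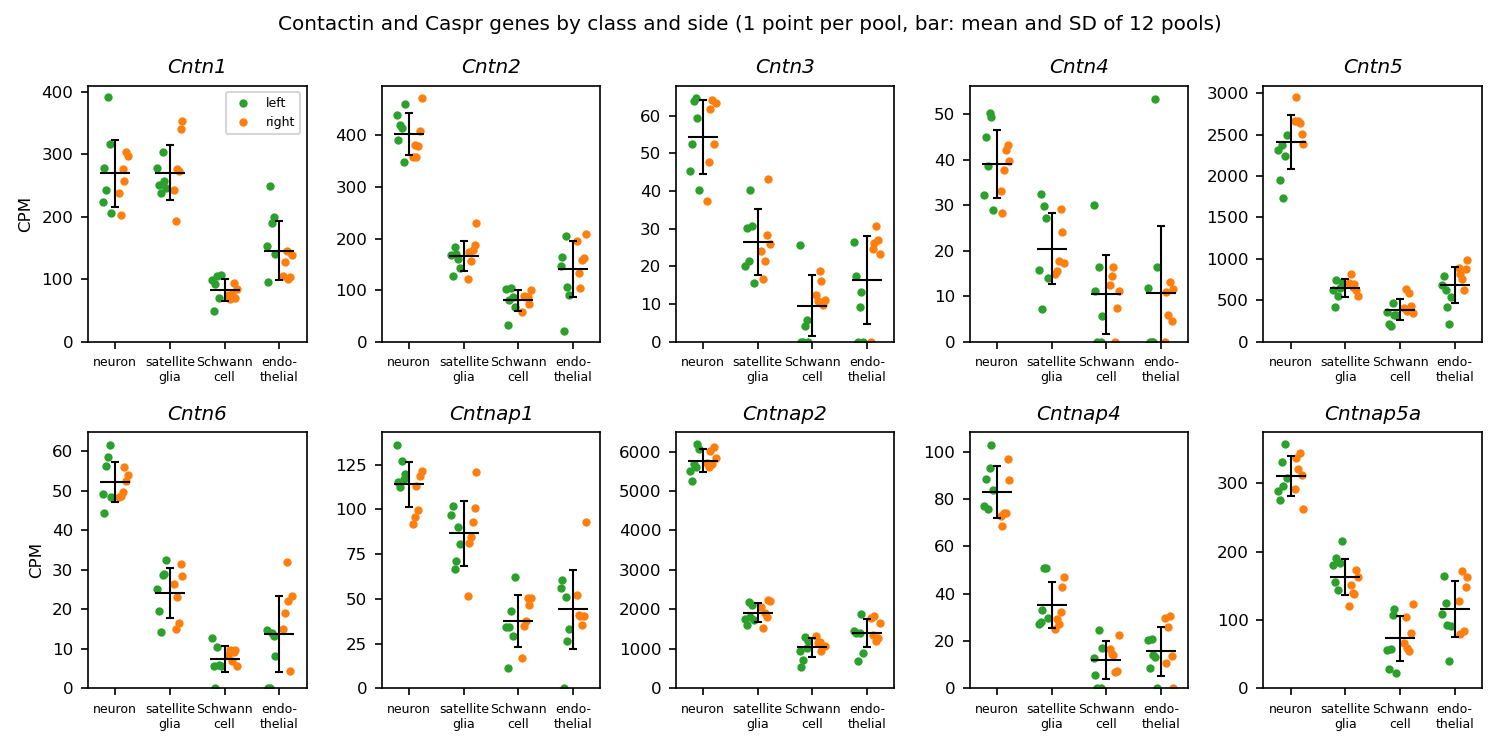
Level of each of the 10 genes (CPM, linear axis from 0) in neurons, satellite glia, myelinating Schwann cells and endothelial cells, with left and right pools set apart by color. Points are pools and bars are the mean and SD of 12 pools; all neuron pools of Cntn2, Cntn5, Cntn6, Cntnap2, Cntnap4 and Cntnap5a lie above the pools of satellite glia, Schwann cells and endothelial cells, whereas the neuron and satellite glia pools of Cntn1 overlap.

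With each nucleus thinned to 750 UMIs, Cntnap2 was found in 95.0% of neurons and 47.4% of endothelial nuclei. The shares were 66.4% and 24.8% for Cntn5, 21.5% and 9.4% for Cntn2, 16.6% and 6.8% for Cntnap5a, and 15.3% and 8.4% for Cntn1. Without thinning Cntn1 was found in 36.9% of neurons and Cntn2 in 57.6%, at a median of 2958 UMIs. The endothelial shares are given for comparison, since neuron markers were also found in endothelial nuclei. The part of neuronal RNA in these shares was not tested.

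Jugular-like and nodose-like neurons differed in 8 of the 10 genes. Jugular neurons arise from the neural crest and nodose neurons from epibranchial placodes, and the former resemble somatosensory neurons while the latter mostly serve internal organs. Cntn1 ranged from 583 to 959 CPM over the pools in jugular-like neurons (median 793) and from 59.9 to 102 CPM in nodose-like neurons (median 82.1). Cntn5 showed the opposite order, with 215 to 464 CPM in jugular-like neurons (median 321) and 2327 to 3692 CPM in nodose-like neurons (median 3038). The pools of the 2 divisions did not overlap for either gene. The ratio of means was 9.70 towards jugular-like neurons for Cntn1 and 9.40 towards nodose-like neurons for Cntn5.

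In this contrast edgeR called 47.4% of 9711 genes, 24.6% higher and 22.8% lower in jugular-like neurons. Among the 10 genes, 5 were called higher and 3 lower. Log2 fold changes were 3.34 ± 0.09 for Cntn1 (adjusted p = 8.6e-24), 2.94 ± 0.13 for Cntn4, 1.19 ± 0.09 for Cntn3, 1.06 ± 0.09 for Cntnap4 and 0.66 ± 0.08 for Cntnap1. Cntn4, which binds the amyloid precursor protein, had 112 ± 32.7 CPM in jugular-like and 15.3 ± 4.9 CPM in nodose-like neurons. The lower genes were Cntn5, at -3.20 ± 0.08 (adjusted p = 1.7e-24), Cntnap5a, at -0.86 ± 0.07, and Cntn2, at -0.26 ± 0.06. Cntnap5a pools did not overlap (115 ± 27.8 CPM in jugular-like and 214 ± 24.5 in nodose-like neurons), while those of Cntn2 (402 ± 63.5 and 491 ± 70.5 CPM) and Cntnap1 (182 ± 44.0 and 119 ± 20.9 CPM) did. The Cntnap1 call was lost at both other clustering resolutions and the Cntn2 call in thinned nuclei. Cntnap2 (-0.10, adjusted p = 0.11) and Cntn6 (0.04, adjusted p = 0.85) were not called. The Cntn6 result depended on the processing: it was called at 0.37 at clustering resolution 0.5 and, in the other direction, at -0.35 at resolution 2 and -0.50 in thinned nuclei. Cntnap2 was called at -0.11 with DESeq2, at -0.17 with no low-count filter, and at -0.13 both with the 10 genes among the clustering genes and without FL3. Neurons of neither list lay between the divisions for Cntn1 (268 ± 23.8 CPM) and Cntn5 (2508 ± 194 CPM) but above both for Cntnap5a (387 ± 34.7 CPM) and Cntnap2 (6288 ± 284 CPM). Divisions were clustered from the same nuclei, so genes that vary with the clustering genes differ between them by construction.

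In thinned nuclei, Cntn1 was found in 34.8% of jugular-like and 6.3% of nodose-like neurons, and Cntn5 in 15.4% and 79.6%. Unthinned shares for Cntn5 were 36.7% and 97.2%, at median depths of 2620 and 4766 UMIs. Because jugular-like neurons carry more Cntn1, their number per pool is given beside the Cntn1 level of all neurons. ML1 had the highest Cntn1 level, 392 CPM, with 27.3% of its neurons jugular-like, and FR2 (204 CPM, 3.21%) and ML3 (205 CPM, 2.63%) had the lowest. The 2 orders were not the same. FL2 had 279 CPM with 22.9% jugular-like neurons. It lay below ML2 (317 CPM, 14.2%), MR2 (305 CPM, 13.3%) and MR3 (297 CPM, 14.4%). The part of make-up in the Cntn1 level was not tested.

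**Figure D2:**
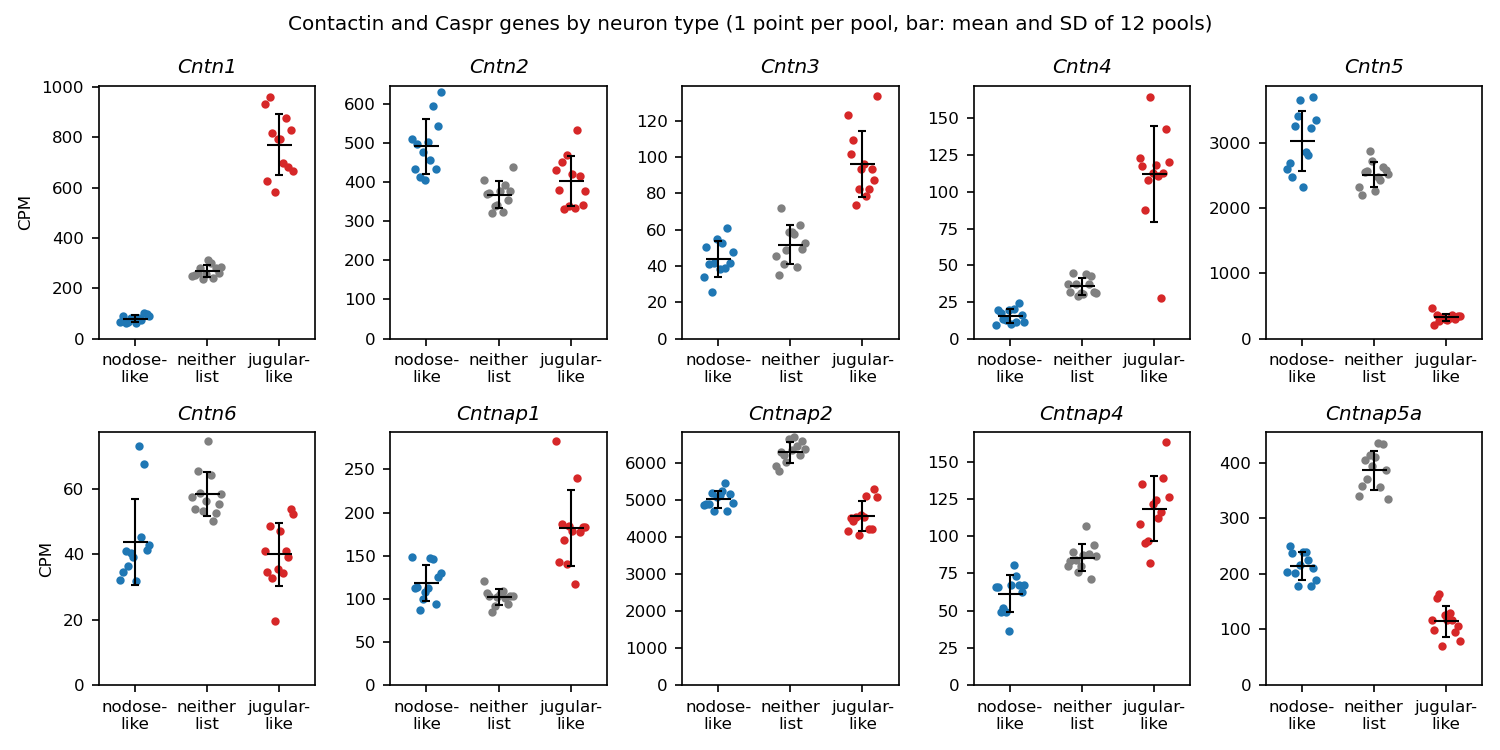
Level of the 10 genes (CPM, linear axis from 0) in nodose-like neurons, neurons of neither list and jugular-like neurons. Points are the 12 pools and bars are the mean and SD; Cntn1 and Cntn4 are higher and Cntn5 lower in jugular-like than in nodose-like neurons without overlap of pools.

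Across the 24 neuron subclusters, each named here by genes that lead it, every one of the 10 genes had its own order. Levels are means ± SD over pools with at least 20 nuclei. Cntn1 was at 1284 ± 242 CPM (8 pools) in the Spp1 and Nefh subcluster, whose leading genes mark large myelinated neurons in other sensory ganglia, at 1174 ± 170 in the Spon1 and Tacr1 subcluster and at 966 ± 155 in the Tafa1 subcluster. It was at 21.3 ± 4.9 CPM in the S1pr3 subcluster. Cntnap1 was also highest in the Spp1 and Nefh subcluster, at 460 ± 102 CPM, with 187 ± 45 in the Tafa1 subcluster. Cntnap2 had its lowest level there, 1537 ± 552 CPM. The paranodal and juxtaparanodal Caspr genes lay at opposite ends of their own ranges in that subcluster. Its pools numbered 8 because the other 4 held too few nuclei.

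Cntnap2 reached 23050 ± 1640 CPM in the Zmat4 and Ntf3 subcluster (399 nuclei, 10 pools at 19992 to 25471). The next subcluster, led by Pappa2, had 12174 ± 1780 CPM. Cntn2 varied least among the 10, from 158 to 727 CPM over nuclei of all pools combined, with 733 ± 91 CPM in the Cysltr2 and Ret subcluster and 156 ± 19 in the Nxph1 subcluster. Cntn3 spanned 0.683 to 477 CPM, with 480 ± 53 in the Pcdh15 and Ndst4 subcluster and 377 ± 40 in the Hmcn1 subcluster, which is nodose-like. Over nuclei of all pools combined, nodose-like subclusters had 2.68 to 365 CPM of Cntn3 and jugular-like ones 38.7 to 345 CPM. Cntn3 therefore did not separate the divisions at this level. The highest level over the lowest, with 5 CPM added to both, was 84.8 for Cntn3 and 4.49 for Cntn2.

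Cntn5 separated the divisions also at this level. All 7 jugular-like subclusters had 241 to 460 CPM and the other 17 had 924 to 5422 CPM. Its highest values were 5371 ± 379 CPM in the Xylt1 and Sctr subcluster, which also carries the cholecystokinin receptor gene Cckar among its leading genes, and 5260 ± 747 in the Pcdh15 and Ndst4 subcluster. Cntn1 did not separate them: jugular-like subclusters had 98.2 to 1274 CPM and the others 20.9 to 1170 CPM. Cntn4 was highest in the Pappa2 subcluster (399 ± 96 CPM), outside the jugular-like group, and at 192 ± 55 in the jugular-like Tafa1 subcluster. Cntn6 was highest in the same Pappa2 subcluster (312 ± 56 CPM), followed by the Hmcn1 subcluster (244 ± 75). Cntnap4 was at 248 ± 68 CPM in the Tafa1 subcluster, at 318 ± 227 (4 pools) in the Trpm8 subcluster, named for the cold-activated channel, and at 8.2 CPM in the Arhgap6 and Zdbf2 subcluster. Cntnap5a was at 1837 ± 140 CPM in the Nxph1 subcluster and 1619 ± 199 in the Pcdh15 subcluster, against 34 CPM in the Htr4 subcluster. Next below the Pcdh15 subcluster was the jugular-like Trpm8 subcluster, at 1344 CPM over nuclei of all pools combined. On that scale jugular-like subclusters had 38.6 to 1344 CPM and nodose-like ones 103 to 364 CPM, so Cntnap5a did not separate the divisions.

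**Figure D3:**
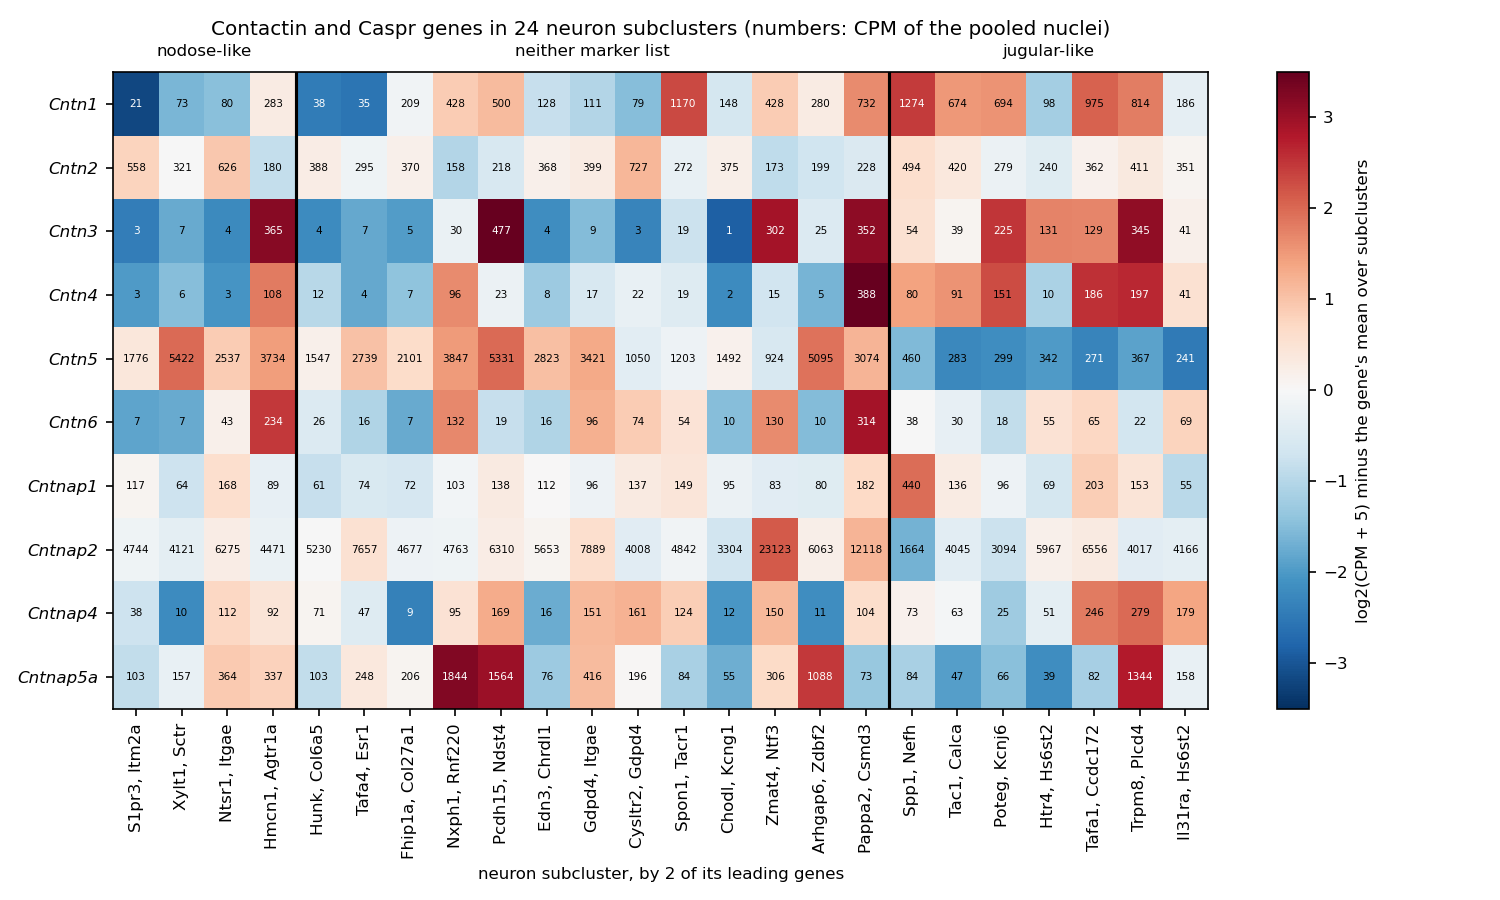
Level of the 10 genes (color, log2 of CPM + 5 minus the gene's mean over subclusters, with the CPM printed in each cell) in the 24 neuron subclusters, nuclei of all pools combined, each named by 2 of its leading genes. Cntn5 is low in the jugular-like columns, Cntnap2 is highest in the Zmat4 column, and Cntn1 and Cntnap1 are highest in the Spp1 and Nefh column.

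Over the 24 subclusters, Pearson's r of log2(CPM + 5) was 0.73 between Cntn1 and Cntn4, 0.72 between Cntn3 and Cntn4, 0.67 between Cntn1 and Cntn3, 0.65 between Cntn6 and Cntnap4, 0.56 between Cntn1 and Cntnap1 and -0.56 between Cntn2 and Cntn3. Subclusters share the pools and libraries, so these are descriptions. Cntn1 and Cntnap1 were found together in 1.36% of thinned neurons, beside 1.05% for the product of their shares. The other 3 pairs examined lay below the product: Cntn2 and Cntnap2 at 20.3% beside 20.4%, Cntn5 and Cntnap4 at 2.98% beside 3.59%, and Cntn1 and Cntnap2 at 14.2% beside 14.6%. Over 31 groups (neuron subclusters and other classes of at least 50 nuclei) and 10391 genes, the pattern most like Cntn1 was that of Cpne6 (r = 0.88), for Cntn2 that of Slc6a15 (0.92) and of Scn9a, a sodium channel of sensory neurons (0.92), for Cntn3 Hs6st3 (0.85), for Cntn4 Asic1 (0.72) and for Cntn5 Eya1 (0.91). Eya1 is in the nodose marker list. For Cntn6 it was Casz1 (0.74), for Cntnap1 Sptan1 (0.91), which encodes the spectrin of the paranodal skeleton, for Cntnap2 Bend5 (0.91), for Cntnap4 Cntnap5c (0.74) and for Cntnap5a the netrin receptor gene Unc5d (0.79).

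Partner genes of nodal, paranodal and juxtaparanodal complexes were called in both directions. In jugular-like against nodose-like neurons, where 24.6% of all genes were called higher and 22.8% lower, of 6 tested genes of the node and axon initial segment 3 were higher and 2 lower: the sodium channel gene Scn8a had a log2 fold change of 0.98, Sptbn4 0.58 and Ank3 0.46, against -2.24 for the potassium channel gene Kcnq3 and -0.31 for Nrcam. Of 23 paranodal and juxtaparanodal genes 14 were higher and 6 lower. The Kv1 channel genes Kcna1 and Kcna4, clients of the contactin 2 and Caspr2 complex, were at 3.20 and 2.65 and Lgi1 at 2.69, whereas Kcnab1 was at -0.81 and Kcna6 at -0.67. Of 8 genes for binding partners of contactins 3 were higher (Notch1, 0.86) and 5 lower (Tnr, -1.23; App, -0.63; L1cam, -0.63). The related genes Cntnap5c and Cntnap5b were at 1.03 and -1.79. The median log2 fold change was 0.16, 0.29 and -0.41 in these lists in turn, 0.35 over the 10 genes and 0.01 over all genes. In neurons against myelinating Schwann cells, where 77% of all genes were called and 38.1% were called higher, 5 of 6 nodal, 13 of 22 paranodal and juxtaparanodal and 5 of 8 binding-partner genes were higher, and 1, 9 and 3 were lower. Lgi4, secreted by Schwann cells, was at -4.17, Cadm2 at -3.42, Cadm4 at -3.17, Notch1 at -3.17 and Ank3 at -0.60. Kcnab1, at 2.40, and Adam22, at 2.39, were among the higher genes.

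By side, 0 of 10 genes were called in all neurons combined, where 0.0428% of 14014 genes were called. For Cntn5, right pools lay at 2382 to 2948 CPM and left pools at 1734 to 2493, with overlap, and the log2 fold change, right over left, was 0.26 ± 0.08 (edgeR, adjusted p = 0.43). The others were at -0.20 (Cntnap1), -0.14 (Cntn4), -0.14 (Cntnap4), -0.09 (Cntn2), -0.08 (Cntn1), -0.06 (Cntn6), -0.02 (Cntn3), 0.02 (Cntnap2) and -0.00 (Cntnap5a), each with an SE of 0.05 to 0.12. Within nodose-like neurons, a comparison added after the data were seen, 2 of 10 genes were called, where 1.98% of 11224 genes were called. Cntn5 was higher on the right. The left pools had 2327 CPM (ML1), 2478 (FL3), 2591 (FL1), 2689 (FL2), 2816 (ML3) and 2854 (ML2), and the right pools 3221 (MR1), 3257 (FR1), 3351 (MR3), 3404 (FR2), 3646 (FR3) and 3692 (MR2). The sides did not overlap, and the log2 fold change was 0.38 ± 0.06 (adjusted p = 2.4e-04). It was called in 21 of 21 alternatives, at 0.34 to 0.41, and was 0.34 without ML1 and FL1 (adjusted p = 0.0046).

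Cntnap5a was lower on the right in nodose-like neurons, with a log2 fold change of -0.24 ± 0.07 (adjusted p = 0.048). Its left pools had 204 to 250 CPM and its right pools 179 to 216, with overlap. The call was lost in 11 of 21 alternatives, among them without ML1 and FL1 (adjusted p = 0.074). The other 8 genes were not called: Cntn1 was at 0.25, Cntn4 at 0.24, Cntn3 and Cntn6 at 0.11, Cntnap2 at -0.04, Cntn2 at -0.07, Cntnap4 at -0.29 and Cntnap1 at -0.30 (edgeR, adjusted p = 0.13). Cntnap1 was called at -0.39 at clustering resolution 2, at -0.30 with no low-count filter and at -0.30 with the replicate block, and Cntn1 at 0.34 without FL2. In jugular-like neurons 0 of 10 genes were called, where 0 of 8410 genes were called and 188 had p under 0.05. Pools held only 37 to 699 of these neurons. Their make-up varied: the Spp1 subcluster was 5.2 to 37.8% of them in left pools and 6.38 to 19.2% in right pools. The lack of calls there does not show that the sides are alike. Partner genes called by side in nodose-like neurons were Cadm2 (0.46), Kcnq3 (0.34), Dlg2 (0.27), Cadm1 (0.19), Cntnap5b (-0.29) and Kcna4 (-0.50), and in satellite glia Kcnq3 (0.55).

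The make-up of nodose-like neurons also differed by side. The Xylt1 and Sctr subcluster, highest in Cntn5, made up 24.8 ± 5.5% of nodose-like neurons in left pools and 42.9 ± 3.8% in right pools. The S1pr3 subcluster, lower in Cntn5, made up 37.2 ± 6.0% and 26.1 ± 5.7%, and the Ntsr1 subcluster 25.6 ± 3.0% and 17.0 ± 4.5%. With the 4 nodose-like subclusters at equal weight, the log2 difference of Cntn5 was 0.19 (two-sided exact permutation p = 0.017, 0.13 after adjustment over 20 comparisons), and without ML1 and FL1 it was 0.19 (exact permutation p = 0.038 before adjustment). With 13 subclusters of all neurons at equal weight it was 0.12 (exact permutation p = 0.0065, adjusted p = 0.13).

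Within single subclusters, Cntn5 was tested by side in the 13 with at least 20 nuclei in every pool, with exact two-sided permutation tests, where 0.00216 is the smallest p that 6 pools against 6 allow. Cntn5 was chosen for these tests after its values by side were seen. In the Tafa4 and Esr1 subcluster the left pools had 2349 ± 130 CPM (2225 to 2553) and the right pools 3071 ± 118 (2953 to 3221), a 1.31-fold difference with no overlap (exact p = 0.00216, adjusted p = 0.0141). In the Gdpd4 and Gpr65 subcluster, the values were 3089 ± 200 and 3669 ± 187 CPM, 1.19-fold, again with no overlap (exact p = 0.00216, adjusted p = 0.0141). The difference passed in the Ntsr1 subcluster (1.26-fold, exact permutation test, adjusted p = 0.0375) and in the S1pr3 subcluster (1.15-fold, exact permutation test, adjusted p = 0.0422), each with overlapping pools. The other 9 ranged from 0.935-fold to 1.15-fold and did not pass, among them the Xylt1 subcluster (1.06-fold). Without ML1 and FL1, where 0.00952 is the smallest p that 4 pools against 6 allow, none of the 13 passed after adjustment: exact p was 0.00952 in each of the first 2 subclusters (adjusted p = 0.0619), 0.0381 in the Ntsr1 subcluster (adjusted p = 0.165) and 0.0571 in the S1pr3 subcluster (adjusted p = 0.186). With the smallest p so high, no single subcluster could pass on its own in that comparison.

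**Figure D4:**
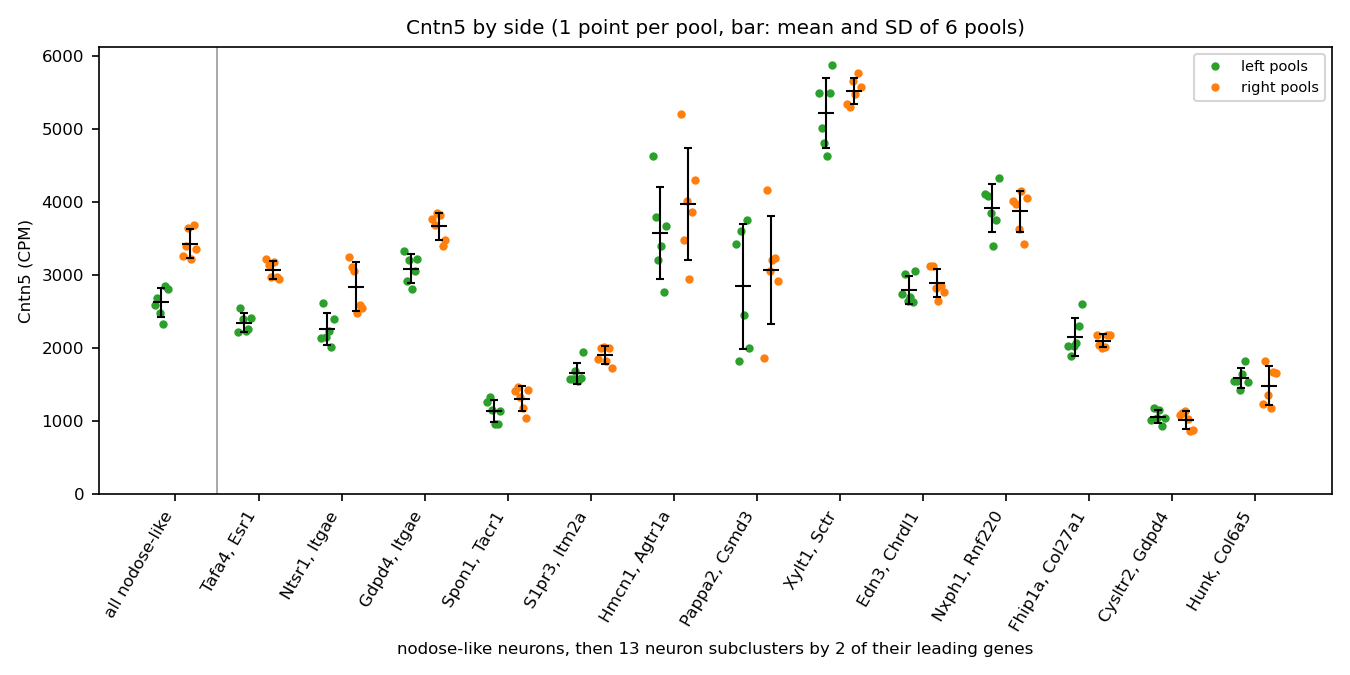
Cntn5 level (CPM) of left and right pools in nodose-like neurons and in the neuron subclusters with at least 20 nuclei in every pool. Points are pools and bars are the mean and SD of 6 pools; left and right do not overlap in nodose-like neurons, in the Tafa4 and Esr1 subcluster and in the Gdpd4 and Itgae subcluster.

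Outside neurons, 0 genes of the 10 were called by side. In satellite glia 0.0199% of genes were called, and Cntnap5a had a log2 fold change of -0.27 (adjusted p = 0.58), with the other 9 between -0.17 (Cntn6) and 0.12 (Cntn5). In Schwann cells 6 of the 10 genes could be tested, where 0.0548% of genes were called, and Cntn5 had 0.53 ± 0.14 (edgeR, adjusted p = 0.35). Without ML1 and FL1 the Schwann cell value was 0.84 and called (adjusted p = 0.020). In endothelial cells 5 could be tested, where 0 genes were called by edgeR and 304 had p under 0.05, and Cntn5 had 0.58 ± 0.16 (adjusted p = 0.51). The summed neuron markers were at 4902 ± 1209 CPM left and 6164 ± 653 right in endothelial cells, at 4177 ± 708 and 4625 ± 573 in Schwann cells, and at 12871 ± 923 and 12267 ± 578 in neurons, with overlapping pools in each class and no test. The part of neuronal RNA in these Cntn5 values was not tested. The side difference itself, each class against neurons, was called for 0 of 10 genes, where 0.0109% of genes were called for satellite glia and for endothelial cells and 0 for Schwann cells.

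By labelled sex, 0 of 10 genes were called in neurons, where 0 of 14014 genes were called and 2623 had p under 0.05 in edgeR. Cntnap4 came closest, at 76.2 ± 6.7 CPM in female-labelled and 89.96 ± 10.1 CPM in male-labelled pools (log2 -0.26 ± 0.07, adjusted p = 0.095). It was -0.26 without ML1 and FL1 (adjusted p = 0.17). The others were at -0.30 (Cntn1), -0.28 (Cntn4), -0.18 (Cntn3), -0.18 (Cntn6), -0.11 (Cntn2), -0.11 (Cntnap1), -0.09 (Cntnap2), -0.05 (Cntnap5a) and 0.07 (Cntn5). The Cntnap4 difference was called with DESeq2, with no low-count filter and without MR1 (adjusted p = 0.028, 0.027 and 0.022). Without ML3 it was not called, whereas 2 others of the 10 genes were. In satellite glia, where 0 genes were called, Cntnap4 had 28.4 ± 2.8 and 42.2 ± 9.3 CPM in that order (log2 -0.57 ± 0.15, adjusted p = 0.37). In Schwann cells 0 of 6 genes were called, where 0.0365% of genes were, and in endothelial cells 0 of 5, where 0 were. The interaction of side and sex in neurons gave 0 of 10 genes, where 0 genes were called and 633 had p under 0.05.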

How the data were processed

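UMIs per nucleus and gene were taken as raw counts from the matrix deposited by the authors. Its genes and a table that names the pool of each nucleus were also deposited. Nuclei were fixed and barcoded with Evercode version 2 kits, per the labels' protocols, and sequenced as 8 sublibraries that each hold nuclei of all 12 pools. The submitters' processing notes name the build mRatBN7.2, R 4.3.2 and Seurat 4.1.3. Neither label nor header names the aligner, the annotation or the barcode filter. The deposited transcript totals matched the matrix in every nucleus.

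Nuclei were kept from 300 detected genes up and with a mitochondrial share of UMIs of 5% or less. Scrublet in scanpy 1.11.5 called 2 doublets, 0.00544% of nuclei, and so hardly worked; leaving out the 1839 nuclei with the highest 5% of scores was an alternative. Clustering used 3000 variable genes, 30 components, 20 neighbours and Leiden resolution 1. The rules for moving and naming subclusters were settled after clusters were seen. UMIs were summed per pool and class and compared by the quasi-likelihood test of edgeR 4.0.16 (TMM scaling, filterByExpr) under R 4.3.3, with Benjamini-Hochberg adjustment over all genes tested. Terms were pool and class between classes or divisions, and side and labelled sex within a class. The test was tested on simulated data. CPM are UMIs scaled to a sum of 1000000 per pool and group, not per length, whereas fold changes use TMM, so the 2 can differ in direction for small differences, as for Cntn1 between neurons and satellite glia. Depth limits classes with few nuclei: 3 UMIs of a gene were 0.0307 CPM over all neurons, which had 97758597 UMIs. Schwann cells had 3857652 UMIs and endothelial cells 2295175 over all pools, so the same number of UMIs gives a far higher CPM there.

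The 10 genes, the marker lists and the partner lists were chosen with earlier results of these data known. The rule was to name all 10 genes in every comparison; in comparisons with no call among them, some are given by count or range only. Of partner genes, the 3 called with the largest fold change in each direction are given where space allows, and of like patterns the first with a symbol. Some listed partner genes, among them Ptprz1 and Cntnap3, were not analysed here. Fits within nodose-like and jugular-like neurons, equal weights, the Cntn5 subcluster tests and class contrasts without ML1 and FL1 were added after the data were seen. The labels do not tie a left pool to a right pool, so no block was used. DESeq2 1.42.0 was an alternative.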

Additional observations from a re-analysis of the deposited data

Results flagged for a closer look

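Of 120 groups of 6 pools (10 genes, 6 classes or divisions, 2 sides), 9 held a pool that stood apart from the other 5 by Dixon's criterion. Chance marks about 1 in 20 such groups. In nodose-like neurons Cntn6 was at 73.1 CPM in ML2, with the other left pools at 31.8 to 45.4, and at 67.7 CPM in MR1, with the other right pools at 36.4 to 42.7. In jugular-like neurons Cntn3 was at 134 CPM in MR3 (other right pools 73.5 to 93.3), Cntn4 at 27.4 CPM in ML3 (other left pools 87.4 to 123) and Cntnap1 at 141 CPM in FR2 (other right pools 168 to 184). In Schwann cells Cntn3 was at 25.7 CPM in FL1 (other left pools 0 to 5.80). In endothelial cells Cntn3 was at 0 CPM in FR1 (other right pools 23.2 to 30.8), Cntn4 at 53.3 CPM in ML2 (other left pools 0 to 16.5) and Cntnap1 at 92.9 CPM in MR3 (other right pools 35.2 to 52.4). The Cntn4 value of ML3 in jugular-like neurons rests on few nuclei. Pools held 37 to 699 jugular-like neurons, and ML3 had the lowest share, 2.63% of its 1409 neurons. The Cntn3 and Cntn4 values in Schwann and endothelial cells rest on few UMIs. Over all pools there were 42 UMIs of Cntn3 in Schwann cells, and 47 of Cntn3 and 21 of Cntn4 in endothelial cells.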

How the results depend on the processing

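Counts of the 10 genes called were within 1.5 times of those reported in every alternative run for the class contrasts, the contrast of jugular-like and nodose-like neurons, and the side fits in all neurons, satellite glia and jugular-like neurons, although thinning left only 7 of the 10 genes tested between classes. These counts take calls in either direction. A call that turned, as for Cntn1 between neurons and satellite glia, is therefore still counted. By sex in neurons the count went from 0 to 1 with DESeq2 and with no low-count filter, and ranged from 0 to 2 when 1 pool was left out (2 without ML3, 1 without MR1). Cntnap4 was not among the 2 called without ML3. By side it went from 0 to 1 in Schwann cells with no filter, without ML1 and FL1 and without the highest doublet scores, and from 0 to 1 in endothelial cells with no filter. In nodose-like neurons it went from 2 to 1 in thinned nuclei and without ML1 and FL1, and ranged from 1 to 2 when 1 pool was left out. It was 3 with the replicate block, in which pools of 1 number and sex were paired. The block was run for side only. The deviations of same-numbered left and right pools from their group means in neurons correlated at -0.16 to 0.45 over 6 pairs. Of 6 left pools, 1 correlated best with its own number. Groups and pairs followed labelled sex, which Y-linked genes contradict for ML1 and FL1. These values therefore cannot settle whether the numbers pair the pools. The labels do not pair them, and no pairing was assumed in the main fits.

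Values near 0 changed sign. For Cntn6 in jugular-like against nodose-like neurons the log2 fold change was 0.37 at resolution 0.5 and -0.35 at resolution 2 (adjusted p = 0.0037 and 0.0067), -0.025 with DESeq2, -0.20 with the 10 genes among the clustering genes, -0.022 with no filter, -0.50 in thinned nuclei (adjusted p = 0.029), -0.097 without ML1 and FL1 and -0.061 to 0.12 when 1 pool was left out. Cntnap2 there was 0.087 at resolution 0.5 and 0.0075 at resolution 2, and was called at -0.11 with DESeq2 and -0.17 with no filter. Cntn1 between neurons and satellite glia was -0.20 with the 10 genes among the clustering genes. By side in nodose-like neurons, Cntn3 was -0.059 at resolution 0.5, -0.0041 without ML1 and FL1 and -0.0048 to 0.24 when 1 pool was left out. Cntn4 was -0.054 without ML1 and FL1, and Cntn6 was -0.12 at resolution 0.5, -0.069 without ML1 and FL1 and -0.0059 to 0.23 when 1 pool was left out. The cause was not tested. Over all genes, 222 called by side in nodose-like neurons became 94 without ML1 and FL1 and 390 with no filter, 6 by side in neurons became 58 with DESeq2, and 0 by sex in neurons became 380 with DESeq2 and 546 without MR1.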
